A study of Mus musculus with 30 samples.

Results

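The left and the right ovary of the same mouse were compared in animals that had received DSS (dextran sulfate sodium), a compound given to rodents to inflame the colon, before puberty. The 14 libraries whose names start with DSS were taken, 7 left ovaries and 7 right ovaries, paired by the animal number in the titles, of 30 libraries in the series. Of the 50600 genes in the table, 14781 reached a mean of 5 normalized counts or more over those 14 libraries and were tested. The mice were female C57BL/6 animals that drank water with 3% DSS for 7 days while sexually immature, and whole ovaries were collected once they were mature. The remaining 16 libraries came from the left and right ovaries of 8 littermates that received no DSS, and they serve here as a second set of left and right pairs. The labels name no allele, transgene or cell sort. The labels give neither the stage of the oestrous cycle nor the tissue left on each ovary at dissection.

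The mouse ovaries lie next to each kidney, each enclosed in a bursa and followed by a coiled oviduct, and both ovulate in each cycle. An ovary holds follicles, made of an oocyte surrounded by granulosa cells and a theca layer, together with corpora lutea and stroma. Theca and interstitial cells make androgens, granulosa cells convert them to oestrogen, and luteal cells make progesterone. Stratified epithelia, as in skin, oesophagus and vagina, are built of keratinocytes that express paired keratins and, as they mature, the proteins of the cornified envelope.

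The values are normalized counts, read counts per gene divided by 1 size factor per library, from CEL-Seq, which tags the 3' ends of polyadenylated RNA. Recovered reads came to 3565168, 3996150 and 8564770 (lowest, median and highest) in left ovaries of DSS mice, against 3434761, 4843687 and 6257834 in right ovaries. Left minus right reads did not pass an exact sign-change permutation test over the 7 mice (two-sided p = 0.73; left higher in 3 of 7), nor did genes detected (p = 0.62) or the mitochondrial share of counts (p = 0.39); the smallest p this design allows is 0.016. Inha, the inhibin alpha subunit of granulosa cells, was at 5022 normalized counts or more in all 14 libraries, Star, the cholesterol carrier of steroid-making cells, at 1247 or more, and the oocyte factor Gdf9 at 116 or more. The left ovary of mouse DSS_11.2 stood apart from the other 13 in its ovarian and its non-ovarian genes, as described below. In all 15 mice the right library carries the left library's number plus 1, so that a step that followed the library numbers and the side cannot be told apart.

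Within the 7 DSS mice, 114 of 14781 genes differed between the sides (limma with the mouse as a block, Benjamini-Hochberg adjusted p under 0.05; 0.771% of genes tested). Left ovaries were higher for 32 of them (0.216%) and lower for 82 (0.555%). The 32 left-higher genes were led in size by genes of stratified epithelium, with log2 differences from 0.32 to 2.11 and a median of 0.63. The 82 right-higher genes had smaller differences, from -0.82 to -0.27 with a median of -0.45, or 1.36-fold at the median. All 32 left-higher genes were higher on the left in 7 of 7 mice, and 81 of the 82 right-higher genes were lower on the left in 7 of 7. Without a test, 3.19% of all genes tested were left-higher in all 7 mice and 4.13% right-higher in all 7. Over all genes tested the median log2 difference was 0.01 and 52.0% were higher on the left. The number of calls changed with the mice included. It was 6 without mouse DSS_15.1, and 97 left-higher and 164 right-higher genes without mouse DSS_11.2. Without each of the remaining mice it was 12 to 51. Each such fit also has 1 mouse fewer, and the cause of the changes was not tested. With a spread estimate that did not follow the expression level no gene was called, although 2234 genes then had an unadjusted limma p under 0.05. Of the 114 genes, 6 were called whichever of the 7 mice was left out (Sprr1a, Krt5, Ndufa12, Rest, Adk and Zfp395), and at the median a gene was called in 1 of these 7 fits; all 114 were called without mouse DSS_11.2. edgeR on the recovered reads called 85 genes, 80 of them among the 114.

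Genes of stratified squamous epithelium were higher in left ovaries. Of a list of 42 keratinocyte genes, 25 were tested, 23 of these had higher levels on the left and 5 were called, all left-higher: Sprr1a, Krt5, Krt4, Krt13 and Cnfn. The median log2 difference of the 25 was 0.95, against 0.01 over all genes tested. Of all genes tested, 52.0% were higher on the left and 0.216% were called left-higher. The list was chosen with earlier results of these data known. Sprr1a encodes a small proline-rich protein of the cornified envelope. Its level was 63.7, 168 and 4055 normalized counts (lowest, median and highest of 7) in left ovaries, against 14.7, 32.8 and 565 in right ovaries. The left ovary was the higher one in each mouse, between 2.06- and 7.17-fold, while the ranges of the 2 sides overlapped across mice; mouse DSS_16.3 was highest on both sides. The mean difference was 1.92 ± 0.19 on the log2 scale (SE, n = 7 pairs; limma adjusted p = 0.0055).

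The promoters of left-higher epithelial genes and of a right-higher gene are given here to show the sequences on which the 2 groups start; they are 300 bases each from RefSeq (GRCm38.p6), 250 before to 50 after the start of transcription, read in the direction of the gene. Capitals mark exact matches, on either strand, to 4 motifs: the TATA box, searched as TATAAA; a form of the AP-1 site, searched as TGANTCA with N for any base; the GC box, searched as GGGCGG; and the CCAAT box, searched as those letters. No match printed here overlaps another. Of 32851 mouse promoters of this length, 13.6% hold TATAAA, 7.81% TGANTCA, 35.7% GGGCGG and 37.4% CCAAT. Of the 114 called genes, 88 have an entry among these promoters.
Sprr1a, chr3:92485832-92486131, minus strand: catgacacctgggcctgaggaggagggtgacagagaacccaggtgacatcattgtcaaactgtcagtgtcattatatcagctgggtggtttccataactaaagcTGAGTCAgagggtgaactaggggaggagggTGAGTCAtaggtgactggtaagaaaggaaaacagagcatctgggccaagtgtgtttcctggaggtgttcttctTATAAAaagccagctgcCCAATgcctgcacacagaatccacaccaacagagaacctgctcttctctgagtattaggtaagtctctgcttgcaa
Krt5, chr15:101712856-101713155, minus strand: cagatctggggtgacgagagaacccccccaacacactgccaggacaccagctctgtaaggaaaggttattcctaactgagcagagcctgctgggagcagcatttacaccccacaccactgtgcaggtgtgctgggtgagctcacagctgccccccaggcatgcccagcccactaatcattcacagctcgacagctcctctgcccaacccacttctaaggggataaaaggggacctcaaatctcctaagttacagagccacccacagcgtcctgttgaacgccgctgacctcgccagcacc
Krt13, chr11:100121517-100121816, minus strand: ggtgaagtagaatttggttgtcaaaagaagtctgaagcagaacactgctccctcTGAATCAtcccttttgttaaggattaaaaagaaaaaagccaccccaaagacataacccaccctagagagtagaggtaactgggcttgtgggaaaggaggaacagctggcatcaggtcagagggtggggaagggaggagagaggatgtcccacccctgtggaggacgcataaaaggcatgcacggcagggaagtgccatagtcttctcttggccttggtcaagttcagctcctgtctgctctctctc
Ndufa12, chr10:94198785-94199084, plus strand: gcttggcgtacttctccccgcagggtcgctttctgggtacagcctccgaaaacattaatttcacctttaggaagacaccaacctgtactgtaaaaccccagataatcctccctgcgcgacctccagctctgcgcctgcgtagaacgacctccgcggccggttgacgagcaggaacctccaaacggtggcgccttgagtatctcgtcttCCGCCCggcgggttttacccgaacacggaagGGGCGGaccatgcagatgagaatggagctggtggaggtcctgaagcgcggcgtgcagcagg
The Sprr1a window holds 2 AP-1 matches, 1 TATAAA and 1 CCAAT, and the Krt13 window printed here holds 1 AP-1 match. Another Krt13 start has the window chr11:100120528-100120827, which is not printed and holds 2 AP-1 matches and 1 CCAAT. The Krt5 window holds none of the 4 motifs. The Ndufa12 window holds 2 GC boxes and none of the others. A match describes letters only.

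Keratins were higher on the left as well. Krt5 (chromosome 15, 101706770 to 101712891, GRCm38), the type II keratin of basal keratinocytes, had 23.5, 30.9 and 804 normalized counts in left ovaries, against 3.97, 12.8 and 103 in right ovaries. It was higher on the left in 7 of 7 mice, with a log2 difference of 1.92 ± 0.23 (SE, n = 7 pairs; limma adjusted p = 0.0091). Krt4, the type II keratin of internal stratified epithelia such as the oesophagus, had 7.81, 15.2 and 409 in left ovaries, against 0, 5.91 and 50.3 in right ovaries. Its difference was 2.11 ± 0.28 (SE, n = 7 pairs; limma adjusted p = 0.015). Its partner Krt13 had 8.82, 16.6 and 574 in left ovaries, against 2.94, 6.52 and 76.8 in right ovaries (log2 1.48, limma adjusted p = 0.047). Krt13 was called in 8 of 21 alternatives; when 1 mouse was left out it was called without mouse DSS_11.2 alone, and the limma adjusted p was 0.088 to 0.13 without each of the other 6. The same order of sides was thus seen in each mouse for each of these keratins, at low levels in 6 mice and at high levels in mouse DSS_16.3. Krt14, the type I partner of Krt5, was higher on the left in 6 of 7 mice and did not pass (log2 1.79, limma adjusted p = 0.053); in mouse DSS_10.4 it had 3.47 on the left and 6.95 on the right.

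**Figure D1:**
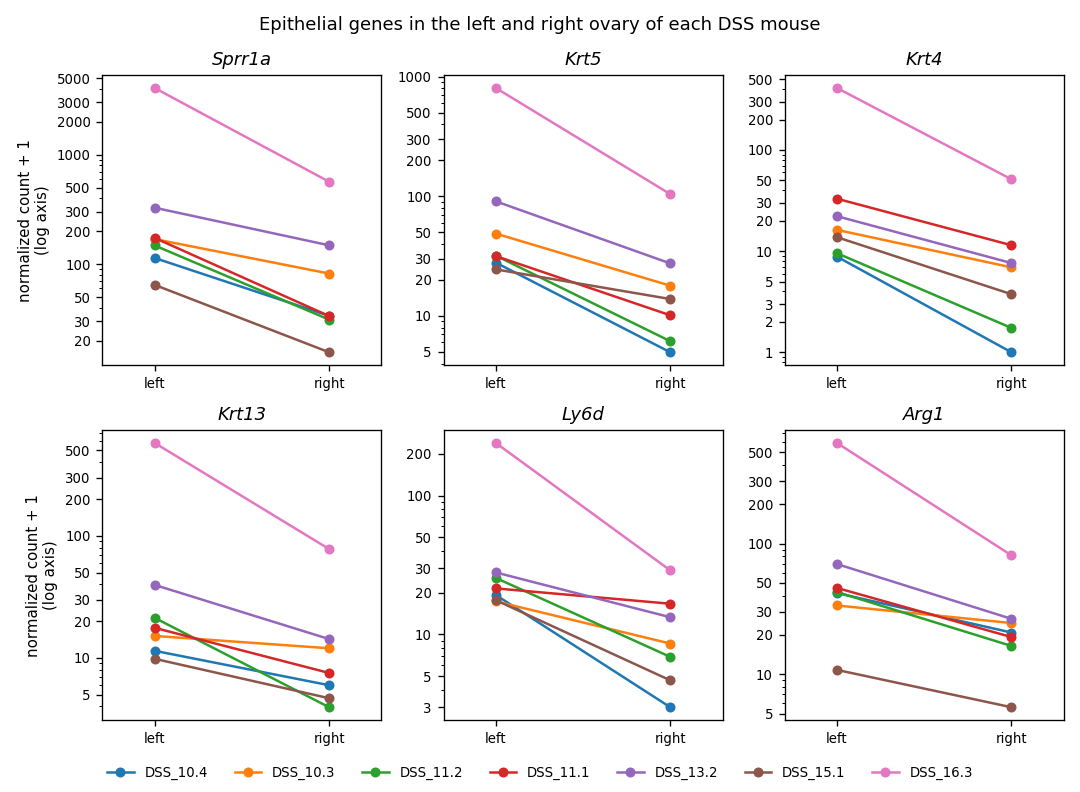
Normalized counts plus 1 (log axis) of 6 genes in the left and the right ovary of each of the 7 DSS mice, 1 line per mouse. Each line falls from left to right in all 6 panels, and mouse DSS_16.3 lies above the other mice on both sides.

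By role, all 5 tested basal-cell genes of the list were higher on the left (median log2 1.57, 1 called), as were all 6 tested cornified envelope genes (median 0.90, 2 called). Of the 9 tested suprabasal keratins and secreted proteins 8 were higher on the left (median 0.95, 2 called), and of the 5 tested desmosome genes 4 were (median 0.42, 0 called). The shares over all genes tested were 52.0% higher on the left and 0.216% called left-higher. The summed level of the whole list was 455, 887 and 8692 normalized counts in left ovaries, against 391, 594 and 1525 in right ovaries, and the left sum was the higher one in 7 of 7 mice. Called left-higher genes outside the list included Ly6d, a surface protein of stratified epithelia (log2 1.71, limma adjusted p = 0.036), and Arg1, the arginase that cleaves arginine to ornithine and urea (log2 1.32, limma adjusted p = 0.036). Ly6d had a median of 20.5 and a highest value of 238 normalized counts in left ovaries, against a median of 7.60 and a highest value of 27.9 in right ovaries. Gjb2 and Asprv1, the connexin-26 gap junction gene and a protease of skin, were also left-higher in 7 of 7 mice, with log2 differences of 1.87 and 1.69 that did not pass (limma adjusted p = 0.059 and 0.11). Without mouse DSS_16.3, Sprr1a and Krt5 remained called (log2 1.77 and 1.75, limma adjusted p = 0.028 and 0.031), while Krt4 did not (log2 1.96, limma adjusted p = 0.063). Krt4 also lost its call without mouse DSS_15.1 (limma adjusted p = 0.058). Arg1 lost its call without any 1 of 6 mice (limma adjusted p = 0.063 to 0.11) and Ly6d without any 1 of 5 (limma adjusted p = 0.068 to 0.11). In bulk ovary RNA, more cells of a type and more RNA per cell cannot be told apart.

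Other left-higher genes lay outside the keratinocyte list. Myl12a, a regulatory light chain of non-muscle myosin, had 615, 704 and 891 normalized counts in left ovaries, against 416, 491 and 515 in right ovaries, with no overlap of the sides (log2 0.56 ± 0.09, SE, n = 7 pairs; limma adjusted p = 0.019). It overlaps Myl12b on the same strand in the annotation, and reads of such near-identical neighbours may have been split between them. Ulk4, a member of the Unc-51-like kinase family, had 99.96, 121.5 and 152 on the left, against 54.5, 76.6 and 82.1 on the right (log2 0.75, limma adjusted p = 0.019); its gene body overlaps Ctnnb1 on the other strand. Gm26722, a long intergenic RNA on chromosome 4 that overlaps Rbbp4 on the other strand, had 179, 195 and 230 on the left, against 95.0, 105 and 142 on the right (log2 0.80, limma adjusted p = 0.015). All 3 genes separated the 7 left from the 7 right ovaries completely, and they lost their calls without any 1 of 4 mice for Myl12a and of 3 mice each for Ulk4 and Gm26722 (limma adjusted p = 0.058 to 0.082). Such separation, here and below, adds no support to a call. Called genes were picked by a test of the same libraries, and the share of separated genes over all genes tested was not counted. Because the strand setting of the counting is not given in the sources used here, genes that overlap another one are uncertain, and this holds above all for Tsix, the antisense partner of Xist (log2 0.85, limma adjusted p = 0.049), which was named after its values were seen.

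The further left-higher genes with the smallest p were 6720464F23Rik, a transcript of unclear status that overlaps Rabgap1l on the same strand (log2 0.69, limma adjusted p = 0.019), Pqbp1, which binds polyglutamine tracts (log2 0.47, limma adjusted p = 0.019), Cdipt, the phosphatidylinositol synthase (log2 0.42, limma adjusted p = 0.033), Sh3bgrl3 (log2 0.54), the adaptor protein Nck2 (log2 0.64) and Stx16, a syntaxin of the Golgi (log2 0.42), the last 3 with a limma adjusted p of 0.036. Pqbp1 had 263, 296 and 374 normalized counts in left ovaries, against 185, 208 and 261.15 in right ovaries. The sides did not overlap for Pqbp1, Sh3bgrl3, Nck2 and Stx16, and they overlapped for 6720464F23Rik and Cdipt. Each of these 6 genes lost its call without any 1 of at least 4 mice, with limma adjusted p values up to 0.12.

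Vegfa, the vascular endothelial growth factor that the follicle and corpus luteum secrete, had 573, 598 and 634 normalized counts in left ovaries, against 385, 473 and 507 in right ovaries. The sides did not overlap, and the log2 difference was 0.38 ± 0.07 (SE, n = 7 pairs; limma adjusted p = 0.036). When 1 mouse was left out, Vegfa was called without mouse DSS_11.2 alone (limma adjusted p = 0.075 to 0.11 without each of the other 6). Of 9 hypoxia-response genes tested, 8 were higher on the left, 1 was called and the median log2 difference was 0.19. Over all genes tested 52.0% were higher on the left and 0.216% were called left-higher. In control mice 8 of 9 hypoxia-response genes were higher on the left too (median 0.13). Vegfa differed by 0.31 there and did not pass (limma adjusted p = 0.0503). Car9, a carbonic anhydrase induced by low oxygen, had 7.81, 13.7 and 19.6 on the left, against 3.68, 5.07 and 5.96 on the right, without overlap, and did not pass (log2 1.20, limma adjusted p = 0.060). Eno2, the neuronal form of the glycolytic enzyme enolase, had 18.5, 33.0 and 58.6 on the left, against 9.13, 14.4 and 18.4 on the right (log2 1.09, limma adjusted p = 0.036), and lost its call without any 1 of 5 mice (limma adjusted p = 0.063 to 0.12). Rarb, a retinoic acid receptor named here after its values were seen, had 11.6, 14.1 and 18.2 on the left, against 2.79, 3.38 and 11.01 on the right (log2 1.50, limma adjusted p = 0.036); it is low and overlaps Top2b on the other strand. C1qb, a chain of complement C1q made by macrophages, had 342, 359 and 484 on the left, against 252, 308 and 349 on the right, was higher on the left in 7 of 7 mice and was called (log2 0.38, limma adjusted p = 0.047). C1qb was called in 8 of 21 alternatives, not with edgeR, and lost its call without any 1 of 6 mice (limma adjusted p = 0.054 to 0.14). Of 12 macrophage genes tested, 9 were higher on the left, 1 was called and the median was 0.20. In control mice 9 of 12 were higher on the left as well, with a median of 0.20 and 0 called. The summed level of the list was 1593 to 2198 in left ovaries of DSS mice, against 1189 to 1672 in right ovaries. This sum was higher on the left in 7 of 7 mice.

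The right-higher genes had a median difference of 1.36-fold. Ndufa12, an accessory subunit of respiratory complex I, had the smallest p of all genes. Its level was 1315, 1564 and 1653 normalized counts in left ovaries, against 1969, 2153 and 2471 in right ovaries, so that the highest left ovary lay below the lowest right ovary. The log2 difference was -0.55 ± 0.05 (SE, n = 7 pairs; limma adjusted p = 0.0055), and the left to right ratio lay between 0.633 and 0.740 in the 7 mice. Rest, a repressor of neuronal genes, had 218, 266 and 293 on the left, against 349, 393.8 and 442 on the right (log2 -0.57 ± 0.06, SE, n = 7 pairs; limma adjusted p = 0.0073). Adk, adenosine kinase, had 324, 352.02 and 414 on the left, against 462, 504 and 563 on the right (log2 -0.50 ± 0.06, SE, n = 7 pairs; limma adjusted p = 0.0077). Neither gene's sides overlapped. Each of these 3 genes was called without any 1 of the 7 mice and lost its call under the spread estimate without a trend, out of 21 alternatives.

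Lamp1, the abundant glycoprotein of the lysosomal membrane, had 4387, 4794 and 4960 normalized counts in left ovaries, against 6166, 6909 and 7621 in right ovaries (log2 -0.54, limma adjusted p = 0.0091). Gsk3a, a glycogen synthase kinase, had 297.7, 345.4 and 386 on the left, against 453, 485 and 574 on the right (log2 -0.51, limma adjusted p = 0.0091). Both overlap another gene on the other strand in the annotation. The further genes with the smallest p, all lower in left ovaries of 7 of 7 mice without overlap, were the zinc finger genes Zfp395 and Zfp212, the phosphoinositide phosphatase Mtmr2, Fam160b1, the unclassified transcript Gm44250, the palmitoyltransferase gene Zdhhc21, the gamma-secretase subunit Psen2, Bri3, the nuclear import receptor Kpna1 and Txndc9, a thioredoxin-domain protein. Their log2 differences lay between -0.71 for Zfp395 and -0.40 for Txndc9. Zfp395, Fam160b1, Psen2, Bri3 and Kpna1 overlap another gene in the annotation too. Zfp395 was called without any 1 of the 7 mice, and the other 9 lost their calls without at least 1 mouse (limma adjusted p = 0.051 to 0.082). The genes with the largest median difference among those lower on the left in 7 of 7 mice were Etos1 and Gm15564, both low non-coding RNAs, Lyar, a nucleolar protein, the transcription factor Sp2 and Tmem178, a membrane protein. Lyar was called (log2 -0.75, limma adjusted p = 0.030), with 65.03, 77.99 and 90.9 normalized counts in left ovaries, against 99.8, 127 and 175 in right ovaries, and its differences ran from -1.15 in mouse DSS_11.1 to -0.17 in mouse DSS_16.3. The other 4 did not pass (limma adjusted p = 0.057 to 0.15). Gm15564 overlaps Kpna1 on the other strand, Etos1 overlaps Fgfr2 on the same strand, and Sp2 overlaps a gene on the other strand. With the strand setting not given, reads of Kpna1 and Gm15564 may be shared. Of the 82 right-higher genes 55 separated the 2 sides completely, as did 16 of the 32 left-higher genes. These genes were picked by a test of the sides in the same 14 libraries, which favours separated genes. The share of separated genes over all genes tested was not counted, so these counts add no support to the calls.

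**Figure D2:**
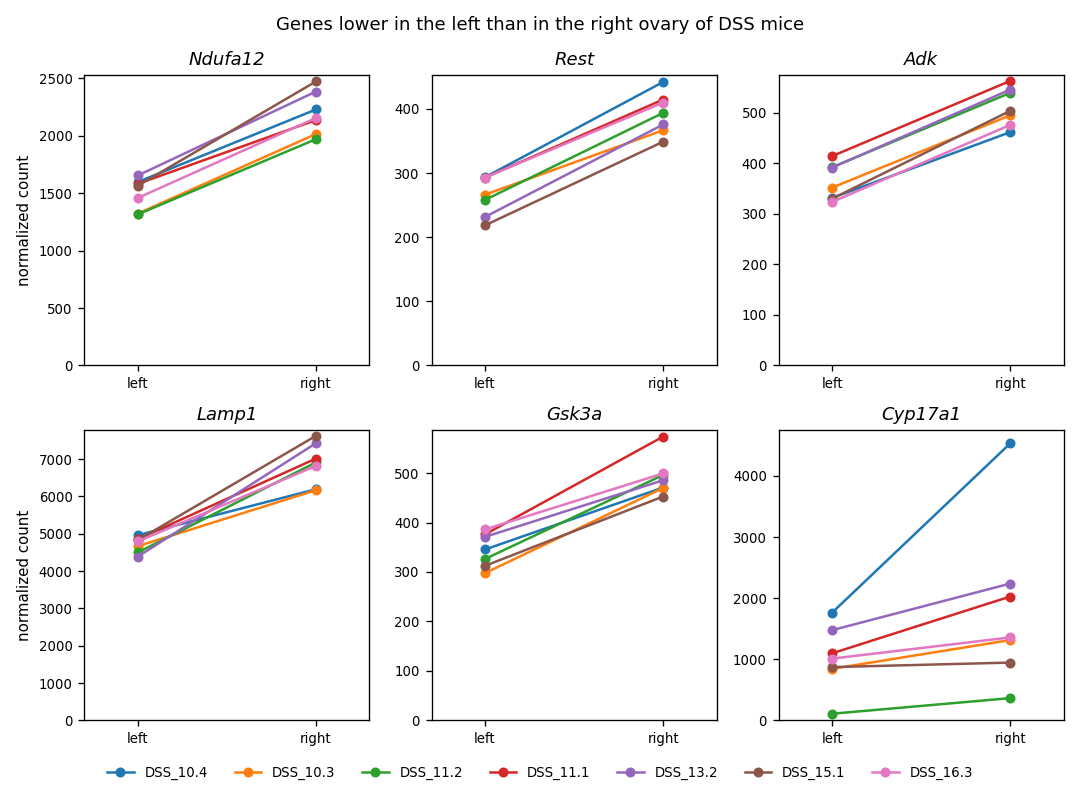
Normalized counts (linear axes from 0) of 6 right-higher genes in the left and the right ovary of each of the 7 DSS mice, 1 line per mouse. Every line rises towards the right ovary; the sides do not overlap for Ndufa12, Rest, Adk, Lamp1 and Gsk3a, and they overlap for Cyp17a1.

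Right-higher genes named after their values were seen belonged to several cellular machines, and the medians of whole families lay near that of all genes. Rpsa, Rps23 and Rps26, proteins of the small ribosomal subunit, were called with log2 differences of -0.33, -0.27 and -0.27, while 33 of 78 tested cytosolic ribosomal protein genes were higher on the left and the family's median was -0.04; reads of these genes are shared with many pseudogenes. Ndufa12 was the single called gene among 37 complex I subunits, whose median was 0.00. Psmc3 and Psmc5 were the called genes among 39 proteasome subunits, whose median was -0.02. Of all genes tested 0.555% were called right-higher. The share called in either direction rose with level, from 0.138% of genes below 100 normalized counts to 4.17% of genes at 1000 or more. Whether any of these families held more calls than genes of like level was not tested. Cycs, cytochrome c, had 2208, 2790 and 3898 normalized counts in left ovaries, against 3638, 3735 and 4223 in right ovaries (log2 -0.42, limma adjusted p = 0.030). Regulators of chromatin among the called genes included the demethylase Kdm5a (log2 -0.63, limma adjusted p = 0.015) and the insulator protein Ctcf (log2 -0.49, limma adjusted p = 0.036). The heat shock genes Hsph1 (log2 -0.35, limma adjusted p = 0.035) and Hsp90ab1 (log2 -0.32, limma adjusted p = 0.036) were called; of the 8 tested genes of the heat shock list, which holds Hsph1, 3 were higher on the left and the median was -0.09.

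Among genes of ovarian function, Cyp17a1 was the one called. It encodes the theca enzyme that turns progestins into androgens. Its level was 110, 1011 and 1764 normalized counts (lowest, median and highest of 7) in left ovaries, against 365, 1358 and 4533 in right ovaries. The right ovary was higher in 7 of 7 mice although the sides overlapped across mice, and the log2 difference was -0.82 ± 0.16 (SE, n = 7 pairs; limma adjusted p = 0.047). edgeR did not call it, and without a single mouse its difference lay between -0.94 and -0.67 and was called without mouse DSS_11.2 alone. Of the 6 tested theca and interstitial genes 4 were lower on the left, 1 was called and the median was -0.24. Of the 16 tested steroidogenesis genes 13 were lower on the left, 1 was called and the median was -0.15. Without mice DSS_10.4 and DSS_11.2 these medians were 0.10 and 0.05, with Cyp17a1 at -0.53 (limma adjusted p = 0.0094). Among all genes tested in the 7 mice, 52.0% were higher on the left and 0.555% were called right-higher.

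Follicle genes were lower on the left as lists, with no member called. Of 15 tested granulosa genes 13 were lower in left ovaries, with a median log2 difference of -0.41, and of 17 tested oocyte genes 15 were lower, with a median of -0.23. Foxl2, the transcription factor that maintains granulosa identity, had 64.0, 118 and 151 normalized counts on the left, against 168, 178 and 213 on the right; the sides did not overlap, and it did not pass (log2 -0.63, limma adjusted p = 0.099). Nr5a2, a nuclear receptor needed for ovulation, had 299, 1007 and 1325 on the left, against 1210, 1626 and 1793 on the right (log2 -0.78, limma adjusted p = 0.11), and was lower on the left in 7 of 7 mice. Bmp15, an oocyte growth factor, was lower on the left in 7 of 7 mice as well (log2 -0.35, limma adjusted p = 0.19). Amh, the anti-Müllerian hormone of growing follicles, had 1007, 1241 and 2367 on the left, against 966, 1404 and 1707 on the right (log2 0.02, 95% interval -0.34 to 0.39, limma adjusted p = 0.96). Cyp19a1, the aromatase, had 6.40, 49.9 and 75.04 on the left, against 19.3, 62.4 and 101 on the right (log2 -0.47, limma adjusted p = 0.44). Fshr, the receptor for follicle-stimulating hormone, had 8.53, 18.5 and 32.3 on the left, against 12.5, 24.8 and 32.6 on the right (log2 -0.41, limma adjusted p = 0.31). Without mice DSS_10.4 and DSS_11.2 the granulosa median was -0.14, with 11 of 15 genes lower, and the oocyte median 0.00, with 8 of 17 lower. Leaving out mouse DSS_11.2 alone, Foxl2 passed (log2 -0.45, limma adjusted p = 0.042).

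Luteal and steroid genes were far lower on the left in mouse DSS_11.2 than in the other 6 mice. Its left ovary had 142 normalized counts of Lhcgr, the receptor for luteinizing hormone, against 2006 in its right ovary. It had 1914 of Cyp11a1, which starts steroid synthesis from cholesterol, on the left, against 9039 on the right, and 1247 of Star on the left, against 6567 on the right. In the other 6 mice Lhcgr lay between 1804 and 2698 in left ovaries, against 1164 and 2224 in right ovaries. Over all 7 mice none of the 3 passed (log2 -0.32, -0.16 and -0.40; limma adjusted p = 0.74, 0.79 and 0.47). Of 15 tested luteal genes 12 were lower on the left with a median of -0.18 and 0 called; without mice DSS_10.4 and DSS_11.2 the median was 0.08 and 5 of 15 were lower.

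In the same left ovary the genes of neighbouring tissues were high. Ovgp1, the glycoprotein secreted by the oviduct, was at 66716 normalized counts in the left ovary of mouse DSS_11.2, against 973 in its right ovary, and at 25161 in the left ovary of mouse DSS_10.4, against 646 in its right ovary. In mouse DSS_13.2 it was 325 on the left, against 4798 on the right, and in mouse DSS_11.1 it was 9953 on the left, against 10440 on the right. The 7 differences therefore ran both ways, and their mean did not pass (log2 1.91 ± 0.92, SE, n = 7 pairs; limma adjusted p = 0.32). All 14 oviduct genes were tested, all had mean levels higher on the left with a median log2 difference of 1.02, and 0 were called; the sum of the list was 561 to 70499 in left ovaries, against 316 to 11412 in right ovaries, and none was at 0 throughout. Without mice DSS_10.4 and DSS_11.2 the median was -0.08 and 5 of 14 were higher on the left. The 5 tested genes of the uterus list had a median of 1.30, the highest of the cell type lists, with 4 higher on the left and 0 called; without those 2 mice the median was 0.18. Ltf, the lactoferrin secreted by the uterine epithelium, was 2133 on the left of mouse DSS_11.2, against 48.6 on its right, and 398.4 on the left of mouse DSS_10.4, against 23.8 on its right (log2 1.76 over the 7 mice, limma adjusted p = 0.22). Smooth muscle genes ran alongside, with 12 of 12 higher on the left, a median of 0.52, a summed level of 4060 to 26316 in left ovaries, against 3644 to 6359 in right ovaries, and a median of 0.09 without those 2 mice. Tagln, a calponin-related protein of smooth muscle, had 55.6, 82.6 and 278 on the left, against 40.5, 60.6 and 73.0 on the right (log2 0.67, limma adjusted p = 0.12). Adipocyte genes had a median of 0.43, and of -0.33 without those 2 mice. Adipoq, the adipocyte hormone adiponectin, was 1874 on the left of mouse DSS_11.2, against 28.0 on its right, and 22.7 on the left of mouse DSS_16.3, against 568.3 on its right. The part that oviduct, muscle and fat RNA plays in the lower follicle and luteal values of these left ovaries was not tested. Without mice DSS_10.4 and DSS_11.2, a choice made after seeing the data, the keratinocyte median was 0.80 and Sprr1a stood at 1.89. Of the 25 keratinocyte genes 23 were still higher on the left.

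**Figure D3:**
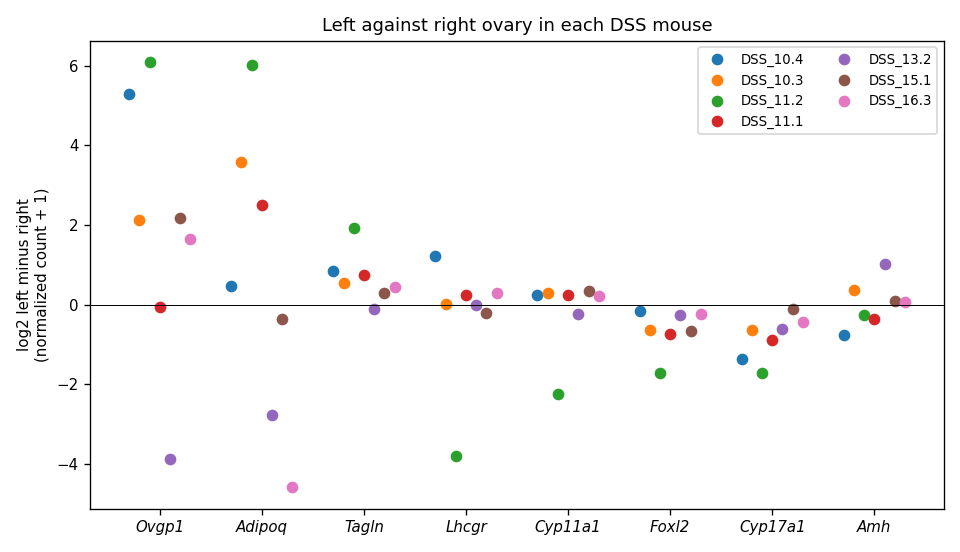
Log2 difference, left minus right, of 8 genes in each of the 7 DSS mice, 1 point per mouse. Ovgp1 and Adipoq spread to both sides of 0, mouse DSS_11.2 lies lowest for Lhcgr, Cyp11a1 and Foxl2, and Foxl2 and Cyp17a1 lie below 0 in all 7 mice.

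The share of genes past 2-fold between a mouse's ovaries was lower in 5 mice than in the other 2. Of 7961 genes with a mean of at least 50 normalized counts, 811 (10.2%) differed by more than 2-fold between the ovaries of mouse DSS_11.2 and 211 (2.65%) between those of mouse DSS_10.4, against 0.703% to 1.07% in the other 5. The largest left excesses in mouse DSS_11.2 were those of Fam81b (376 on the left, against 2.21 on the right), Plekhs1 and A2ml1, and the largest right excesses were those of Bhmt (3.20 on the left, against 543 on the right), Ssu2 and Mmel1. Bhmt encodes the betaine-homocysteine methyltransferase. In mouse DSS_10.4 Fam81b, Serpina1e and Ovgp1 led on the left. In mice DSS_10.3 and DSS_11.1 fat genes were among the 3 largest left excesses (Cfd, Retn and Adipoq in DSS_10.3; Fabp4 and Adipoq in DSS_11.1), whereas in mouse DSS_16.3 Adrb3, Cfd and Adipoq had the largest right excess. In mouse DSS_11.1 the largest right excess was that of Ighg2c, an immunoglobulin heavy chain gene, with 25.6 on the left and 1241 on the right. In mouse DSS_15.1 mt-Nd6 had 23.5 on the left and 299 on the right, and Hba-a1, an alpha globin, 454 on the left and 2603 on the right. All 5 tested erythroid genes had lower mean levels on the left (median -0.52, 0 called). These values describe 1 ovary a side in each mouse and carry no test.

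Lists of other cell types and pathways had no called member in DSS mice unless stated above. Medians lay at 0.35 for mesothelium and surface epithelium (11 of 13 higher on the left), 0.19 for stroma, 0.15 for endothelium, 0.56 for neutrophils and mast cells (0.06 without mice DSS_10.4 and DSS_11.2), 0.29 for T and NK cells, 0.23 for MHC class II genes, 0.16 for inflammatory signalling and -0.01 for interferon-response genes. Without mice DSS_10.4 and DSS_11.2 they were 0.13 for mesothelium and surface epithelium, 0.06 for stroma and 0.10 for endothelium. Those of T and NK cells, MHC class II, inflammatory signalling and interferon response were then 0.16, 0.14, 0.09 and 0.04. Of 19 tested cell cycle genes 15 were lower on the left with a median of -0.13, and 10 of 19 were higher without mice DSS_10.4 and DSS_11.2. Of 12 genes of left-right body patterning 2 were tested. Of 19 cholesterol synthesis genes 14 were lower on the left (median -0.18), and 10 were lower without mice DSS_10.4 and DSS_11.2 (median -0.03). Tnni2, a fast skeletal muscle troponin, had 8.68, 12.2 and 31.8 on the left, against 1.89, 4.89 and 7.34 on the right, and did not pass (log2 1.52, limma adjusted p = 0.054). Cdkn1b, a cell cycle inhibitor that restrains primordial follicles, was lower on the left in 6 of 7 mice (log2 -0.76, limma adjusted p = 0.096). Oasl2, an interferon-induced gene, was higher on the left in 7 of 7 mice (log2 0.55, limma adjusted p = 0.093).

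**Figure D4:**
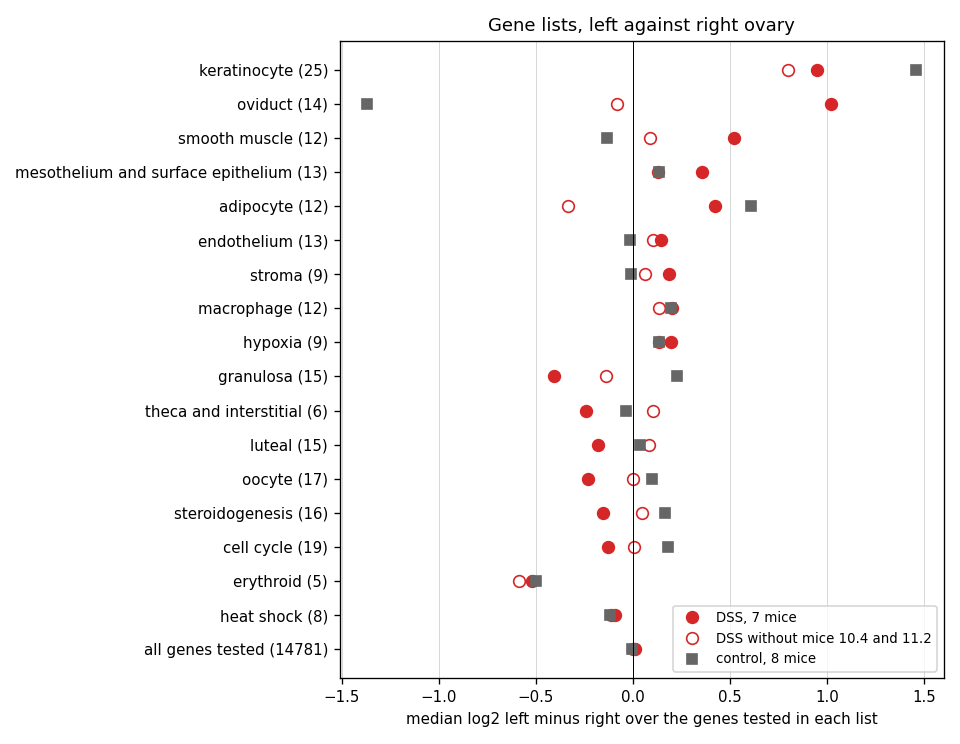
Median log2 difference, left minus right, over the tested genes of 17 lists (number tested in DSS mice in brackets) and over all genes tested, in the 7 DSS mice (filled circles), in DSS mice without DSS_10.4 and DSS_11.2 (open circles) and in the 8 control mice (squares). The keratinocyte list lies right of 0 in all 3, while the oviduct list lies at 1.02 in DSS mice, at -0.08 without the 2 mice and at -1.37 in control mice.

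The same comparison in untreated littermates gives the side difference in mice that share no library with the DSS mice. Of 14524 genes tested there, 404 were called (2.78%), 185 higher and 219 lower on the left. Of the 114 genes called in DSS mice 59 were called in control mice, all 59 in the same direction; they are 51.8% of the DSS calls and 14.6% of the control calls. Among the 32 left-higher genes 30 had the same direction in control mice and 13 were called. Among the 82 right-higher genes 80 had the same direction and 46 were called. The share with the same direction over all genes tested in both groups was not counted. Called genes were mostly higher expressed ones, whose side differences correlated more between the groups, as given below. Ndufa12 had a log2 difference of -0.55 in DSS mice and -0.43 in control mice, Lamp1 -0.54 and -0.57, and Kdm5a -0.63 and -0.58. The keratinocyte list had a median of 0.95 in DSS mice, with 5 called, and of 1.46 in control mice, with 17 called. Some lists lower on the left in DSS mice were higher on the left in control mice, with 0 called. There 14 of 15 granulosa genes (median 0.23) and 12 of 17 oocyte genes (0.10) were left-higher. So were 17 of 19 cell cycle genes (0.18) and 11 of 16 steroidogenesis genes (0.16). Without mice DSS_10.4 and DSS_11.2 the DSS medians were -0.14 for granulosa, 0.00 for oocyte, 0.00 for cell cycle and 0.05 for steroidogenesis genes. Whether DSS changed the side of these lists was not tested. In control mice the luteal median was 0.04, and medians stayed below 0 for theca and interstitial (-0.03), cholesterol synthesis (-0.05) and erythroid genes (-0.50). Sprr1a differed by 1.92 in DSS mice and by 2.65 in control mice, and Krt5 by 1.92 and by 2.76. Across genes, the side differences of the 2 groups of mice had a Spearman correlation of 0.62 for 552 genes with a mean of at least 1000 normalized counts, 0.58 for 1519 genes between 300 and 1000, 0.44 for 3301 genes between 100 and 300 and 0.14 for 9409 genes below 100; genes of 1 library share its depth and tissue make-up and are not independent.

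**Figure D5:**
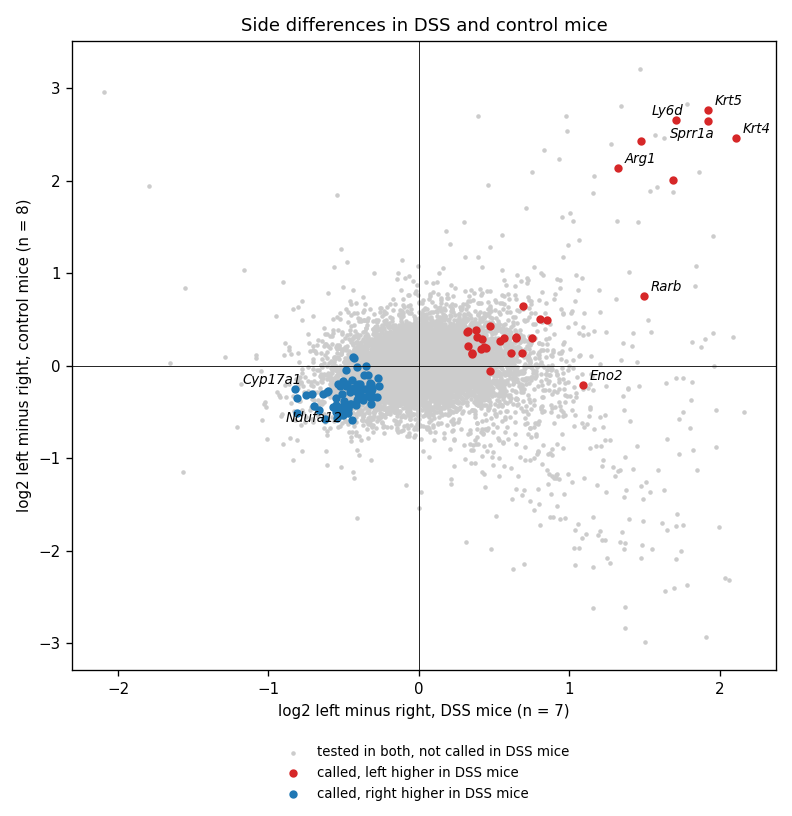
Log2 difference, left minus right, in the 7 DSS mice (horizontal) and the 8 control mice (vertical), 1 point per gene tested in both. Genes called left-higher in DSS mice are red and those called right-higher blue. In control mice 30 of the 32 red and 80 of the 82 blue points have the same sign. The share of same-sign points over all genes was not counted.

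DSS and control mice were then compared in the size of the side difference itself, with 1 value per mouse. Of 14646 genes, 0 passed (0%; limma with Benjamini-Hochberg adjustment), and 1248 had an unadjusted p under 0.05. edgeR called 1 gene and DESeq2 2. The smallest adjusted p was that of Gm43028, a processed pseudogene with 0 to 6.86 normalized counts in left and 0.70 to 29.98 in right ovaries of DSS mice, and 0 to 32.6 in left and 0 to 4.03 in right ovaries of control mice (difference of differences -3.74, 95% interval -5.03 to -2.44; limma adjusted p = 0.10). The pseudogene Rpl21-ps5 followed (-5.05, limma adjusted p = 0.28). Reads of both pseudogenes are uncertain, since near-identical copies exist elsewhere. The positive differences with the smallest p were those of Gm26670, Dcpp1, Il20rb, Gm3364 and Kndc1, and the next negative ones those of Brd1, Rfwd3 and Nipsnap3b (limma adjusted p = 0.53 for each). Oviduct genes had opposite signs in the 2 groups when all mice were kept, with a median of 1.02 in DSS mice and of -1.37 in control mice. In control mice 0 of 13 were higher on the left and 3 were called right-higher. Without mice DSS_10.4 and DSS_11.2 the DSS median was -0.08, with 5 of 14 higher on the left. Ovgp1 differed by 1.91 in DSS mice and by -2.94 in control mice (difference 4.85, 95% interval 1.99 to 7.71; limma adjusted p = 0.53). For genes called in DSS mice but not in control mice the test of the difference did not pass either. Eno2 differed by 1.09 in DSS mice and by -0.21 in control mice (difference 1.302, 95% interval 0.57 to 2.03; limma adjusted p = 0.53). Brd1, a bromodomain protein, differed by -0.43 and by 0.09 (difference -0.52, 95% interval -0.77 to -0.27; limma adjusted p = 0.53), and Cyp17a1 by -0.82 and by -0.25 (difference -0.57, 95% interval -1.09 to -0.05; limma adjusted p = 0.57). For Sprr1a the difference was -0.72 with a 95% interval of -1.38 to -0.07 (limma adjusted p = 0.57).

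The left-higher genes had shorter and GC-richer transcripts than the right-higher genes at the median, which was not tested. The longest annotated transcript (GENCODE M21) had a median length of 2220 bases for the 32 left-higher and 3877 for the 82 right-higher genes, against 3280 for all tested genes, and its median GC content was 53.4%, 49.5% and 48.9% in the same order. The calls lay mostly among higher expressed genes: 4.17% of the 552 genes that averaged 1000 normalized counts or more were called, against 0.138% of the 9409 genes below 100. Right-higher calls came from 20 chromosomes and left-higher calls from 16, and 80 of the 82 and 29 of the 32 were protein-coding.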

How the data were processed

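The data are CEL-Seq libraries of single mouse ovaries. Per the labels' protocols, RNA was extracted with TRIzol, cleaned on Zymo columns, and each sample was barcoded with a mixture of 3 CEL-Seq primers. The tools TopHat, HTSeq and DESeq2 and the build GRCm38.p5 are named, per the submitters' processing notes; versions and the strand setting are not given in the sources used here. The authors deposited a signal per gene, normalized counts, in 1 table. Its values were whole multiples of 1 step per library (between 0.528 and 1.33), so whole reads were recovered, for 99.99% of values above 0 in the lowest library (tolerance 0.0051 normalized counts); 50600 genes are listed, 21274 of them at 0 in all 30 libraries, and no 2 libraries were identical. Reads came to between 3095386 and 8564770 per library. PCR copies and molecules cannot be separated here, and depth limits low genes.

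Genes with a mean of at least 5 were tested on log2(normalized count + 1), a scale that understates changes of low genes, by R 4.3.3 and limma 3.58.1 (two-sided, with a trend; Benjamini-Hochberg, threshold 0.05), with the mouse as a block. Control mice were fitted in the same way, and the difference between DSS and control mice on each mouse's left minus right value. The pairing comes from the animal numbers in the titles, since both ovaries of a pair came from 1 animal; across the tested genes the deviations of a mouse's 2 ovaries from the side means correlated between -0.28 (mouse DSS_13.2) and 0.28 (mouse DSS_15.1). Alternatives were edgeR 4.0.16 and DESeq2 1.42.0 on the recovered reads, other pseudocounts (0.5 and 5), mean filters (20, 1 and none), scalings, no trend, no block, a fit over all 30 libraries and leaving out mice. The functions were tested on simulated data. Named genes were taken from the 15 genes per direction with the smallest p, a fixed set of ovarian and epithelial genes, the 2 to 4 smallest p of each list, 5 genes per direction of the DSS minus control difference and of those alike in all 7 mice, and 3 per direction in each mouse; others are said to be chosen after their values were seen. Of these, 2 genes are not reported here, and several genes of the lists and of single mice enter only through counts and medians. The members, lists and rules were chosen with earlier results of these data known. Lists are described by counts and medians without a test. Coordinates are as deposited; 99.6% of identifiers were found in GENCODE M21.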

Additional observations from a re-analysis of the deposited data

Results flagged for a closer look

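Among 52 sets of 7 values of DSS mice (library measures by side and left minus right log2 differences of named genes), 11 had 1 value whose gap to the nearest other exceeded 0.568 of the range; chance flags about 1 in 20 such sets. Of these, 6 concern mouse DSS_11.2, whose left ovary was also the richest in Ovgp1: the differences were -3.81 for Lhcgr, -2.40 for Star, -2.24 for Cyp11a1, -1.72 for Foxl2, -1.27 for Gdf9 and -0.76 for Mtmr2. The left ovary of mouse DSS_13.2 had the most reads (8564770) and the most genes detected (21903) of the left ovaries. The right ovary of mouse DSS_10.3 had a mitochondrial share of 24.1% of counts, the highest of the right ovaries. The difference of Arg1 was 2.86 in mouse DSS_16.3, above the other 6 mice, and that of Krt14 was -0.83 in mouse DSS_10.4, below the other 6.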

How the results depend on the processing

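The number of genes called in DSS mice (114) stayed within 1.5 times of that value with other pseudocounts, a mean of at least 1, TMM scaling, edgeR and without mice with an ovary above 5000 Ovgp1. It was 211 with a mean of at least 20, 46 with no filter, 57 after quantile normalization, 0 without a trend in the spread and 253 with DESeq2. The genes themselves changed more than the count in some settings. Without the mice above 5000 Ovgp1, 71 of 148 calls were among the 114, and with DESeq2 90 of 253. In a fit over all 30 libraries 532 genes were called, and without mice DSS_10.4 and DSS_11.2, an alternative chosen after seeing the data, 96 left-higher and 166 right-higher genes were called. Both ovaries of a pair share an animal; without the pairing as a replicate block 194 genes were called, 95 of them among the 114, and in control mice 187. Leaving out 1 mouse gave between 2 and 97 left-higher and between 4 and 164 right-higher calls. In control mice (404) the count was 223 with no filter and 16 without a trend, and 179 to 687 when leaving out 1 mouse. For the DSS minus control difference (0), quantile normalization gave 1, edgeR 1, DESeq2 2, leaving out the mice with an ovary above 5000 Ovgp1 1, and leaving out 1 mouse 0 to 2; the genes were Gm43028, Rpl21-ps5 and Kndc1. The cause of these changes was not tested.

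No called named gene reversed. Among named genes that were not called, Srd5a1 was at -0.0066 with TMM scaling. Without the mice above 5000 Ovgp1 the log2 difference turned for Cyp19a1 (0.023), Lhcgr (0.028), Cyp11a1 (0.15), Akr1c18 (0.13), Inha (0.059), Zp3 (0.16), Adipoq (-1.04), Cidec (-0.59), Mylpf (0.61), Miox (0.20), Apoa1 (0.11) and Cd79b (-0.060). Without mice DSS_10.4 and DSS_11.2 it turned for Lhcgr (0.068), Cyp11a1 (0.17), Akr1c18 (0.27), Gdf9 (0.0035), Zp3 (0.17), Adipoq (-0.33), Cidec (-0.060), Mylpf (0.33), Miox (0.13) and Apoa1 (0.029). Leaving out 1 mouse gave ranges across 0 for Srd5a1 (-0.063 to 0.046), Akr1c18 (-0.40 to 0.10), Amh (-0.14 to 0.16), Lhcgr (-0.58 to 0.26), Cyp11a1 (-0.25 to 0.19), Zp3 (-0.18 to 0.073), Adipoq (-0.20 to 1.57), Cidec (-0.11 to 1.34) and Mylpf (-0.51 to 0.24).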
